A study of Mus musculus with 8 samples.

Results

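The genes described here are 8 regulators and markers of skeletal muscle cells: Pax7, Myf5, Myf6, Myod1, Myog, Cdh15, Des and Mef2c. They were taken as every probe set that the array's annotation ties to one of these symbols and to no other gene, which gave 13 of the 22626 probe sets that are not controls, and 8 of 12393 named genes. Of the genes 6 have a single probe set, Des has 2 and Mef2c has 5. Their levels were asked about in blood-lineage cells sorted from muscle, to see whether such cells show RNA of the muscle programme.

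The RNA came from cells sorted as CD45+/Sca1+ and was hybridised to 8 Mouse430A GeneChips (Affymetrix), with 1 sample on each. CD45 (gene Ptprc) is a surface protein of blood-lineage cells and Sca1 is found on stem cells and progenitors of the mouse, and on some mature cells. All mice were C57BL/6 aged 6 to 8 weeks, and the 4 groups hold 2 arrays each: cells of bone marrow (marrow), cells of muscle with no treatment listed (uninjured muscle below), cells of muscle injured with cardiotoxin in mice without a transplant (injured muscle), and cells of cardiotoxin-injured muscle in mice given bone marrow (transplanted injured muscle). Cardiotoxin is a snake venom protein that destroys muscle fibres while satellite cells survive and rebuild them. The time after injury, the donor, the conditioning of the recipients and the number of mice pooled per array are not given in the labels, and no mouse carries a stated mutation or transgene.

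Skeletal muscle regenerates from satellite cells, stem cells that lie on the fibre and are marked by the transcription factor Pax7. Once activated they carry Myf5 and Myod1, then switch on Myog as they leave the cell cycle, and Myf6 is kept in mature fibres. Those 4 factors form the MyoD family, bind the E-box in DNA and work together with MEF2 proteins on the genes of the contractile apparatus. Satellite cells themselves lack CD45.

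The arrays were close to a common scale, with medians of 56.3 to 75.7 intensity units, and the median of all values was 64.2. Replicate arrays of a group correlated at 0.895 to 0.950 over all probe sets on the log2 scale. The ratio of the 3' to the 5' Gapdh control probe set, which is high where RNA was short or copying was incomplete, was 10.7 to 46.9 on the 4 bone marrow and uninjured muscle arrays and 0.808 to 0.882 on the 4 injured arrays, with or without transplant. Actb showed the same split, at 5.68 to 19.0 against 1.18 to 1.23. Each comparison of an injured group with bone marrow or uninjured muscle therefore also compares these control ratios, and the part they have in any result was not tested. The 6 blood cell markers lay above the array's median on every array, with Ptprc between 4924 and 6996. Fewer cells of a type and less RNA per cell cannot be told apart in such bulk samples, and intensities of different probe sets are not comparable as levels, so each gene is compared with itself across arrays and with its rank within an array.

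The muscle genes other than Mef2c were mostly low. Cdh15 lay above the array's median on both injured arrays, Myog on 1 of them and the brighter Des probe set on 4 of the 8 arrays. Pax7, Myf5, Myf6 and Myod1 lay under the array's median on all 8 arrays. This was so for 4 of 8 genes, or 50%, against 29.4% of all named genes. Mef2c alone lay above the median on all 8 arrays (12.5% of the 8 genes, against 40.4% of all named genes). Pax7, Myf5 and Myf6 did not reach 38.4, the 40th percentile of all values, on any array, and were therefore not tested, because a probe set had to reach that value on at least 2 arrays. The other 5 genes, or 62.5%, were tested, against 76.7% of all named genes. The value of 38.4 is a filter and not a detection limit.

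**Figure D1:**
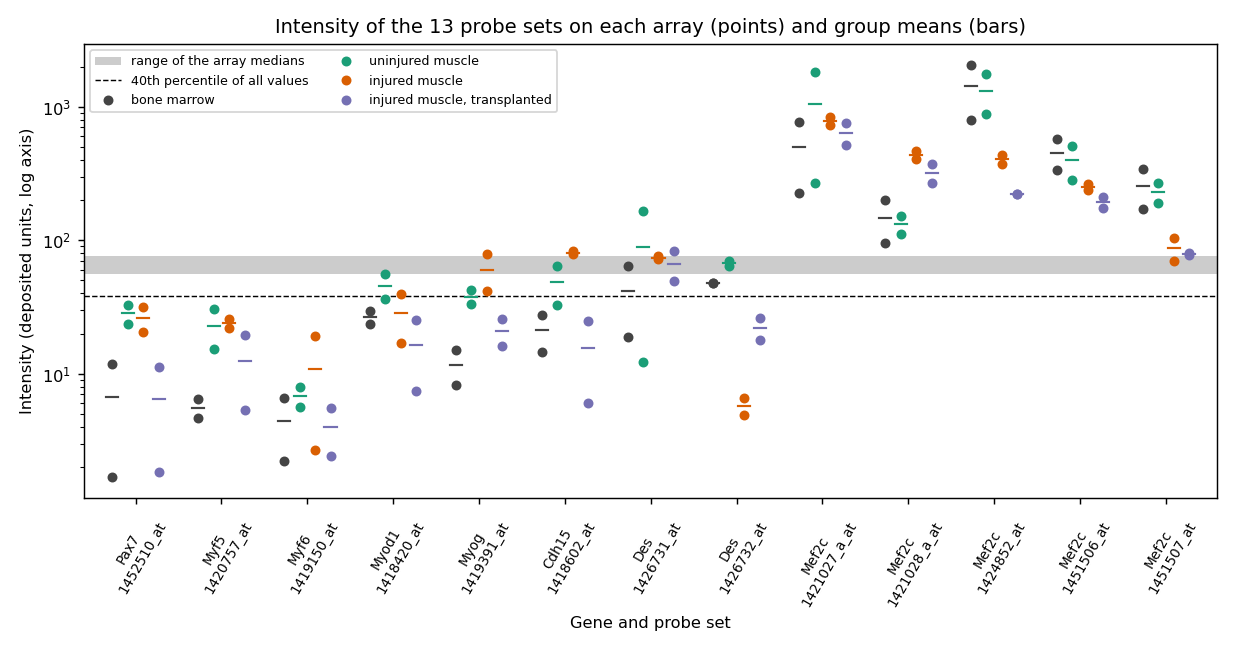
Intensity (log axis) of the 13 probe sets of the 8 genes, with 1 point per array and a bar at each group's mean of 2 arrays. The dashed line is the 40th percentile of all values, 38.4, and the grey band spans the array medians of 56.3 to 75.7. Pax7, Myf5 and Myf6 stay under the dashed line on all 8 arrays, and the 5 Mef2c probe sets lie above the medians of their arrays throughout.

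Pax7, the factor that marks satellite cells, was 1.67 and 11.7 in marrow, 23.7 and 32.8 in uninjured muscle, 20.6 and 31.4 in injured muscle, and 1.84 and 11.2 in transplanted injured muscle. Both muscle groups without a transplant were above both bone marrow arrays and both transplanted arrays, but the highest array was only at percentile 35.0 of its probe sets. The order of the group means ran from uninjured muscle at 28.3 ± 6.43 (SD, n = 2) through injured muscle at 26.0 ± 7.69 (SD, n = 2) and bone marrow at 6.70 ± 7.11 (SD, n = 2) to transplanted injured muscle at 6.51 ± 6.6 (SD, n = 2). Uninjured and injured muscle overlapped, as did bone marrow and transplanted injured muscle.

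Myf5, the first factor of the MyoD family to appear in muscle development, was 6.49 and 4.65 in marrow, 30.6 and 15.4 in uninjured muscle, 22.1 and 25.7 in injured muscle, and 5.37 and 19.3 in transplanted injured muscle. Each neighbouring pair in the order of its group means overlapped, and its highest array was at percentile 33.1. Myf6, also called MRF4, which is the family's main member in adult fibres, was the lowest of the 8 genes by rank. Its values were 2.23 and 6.57 in marrow, 7.89 and 5.64 in uninjured muscle, 2.67 and 19.1 in injured muscle, and 2.44 and 5.52 in transplanted injured muscle. The single injured array at 19.1 stood above the other 7, and all groups that were neighbours in the order overlapped.

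Myod1, the factor that can turn fibroblasts into muscle cells, was 29.6 and 23.7 in marrow, 36.0 and 55.5 in uninjured muscle, 17.1 and 39.7 in injured muscle, and 25.4 and 7.44 in transplanted injured muscle. Neighbouring groups in the order of the means overlapped, and no array was above its median. In none of the 6 comparisons did Myod1 pass the limma test, where its adjusted p ran from 0.117 to 0.994. The difference of injured muscle from bone marrow was -0.01 on the log2 scale (SE 0.63), and a difference of 1 log2 unit in either direction lies within 2 standard errors.

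Myog, myogenin, is the family member switched on at terminal differentiation. It was 8.20 and 15.0 in marrow, 33.4 and 42.1 in uninjured muscle, 41.5 and 78.3 in injured muscle, and 16.1 and 25.6 in transplanted injured muscle. Injured and uninjured muscle overlapped, while transplanted injured muscle and bone marrow were below both. Only the second injured array was above its median. Against bone marrow, Myog was higher in injured muscle by 2.01 on the log2 scale of value plus 4.02 (SE 0.52, limma adjusted p = 0.0221). That difference rests on low values: with all values under 38.4 set to 38.4 it was 0.53 (adjusted p = 0.161). It also lost the threshold without the first bone marrow array (1.69, adjusted p = 0.11) and without the second injured array (1.58, adjusted p = 0.129). Uninjured muscle was 1.45 above bone marrow (SE 0.52, adjusted p = 0.177) and transplanted injured muscle was below injured muscle (log2 difference -1.33, SE 0.52, adjusted p = 0.488), both without passing.

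The Myog promoter is printed because the short stretch before the gene is a textbook case of control by the MyoD family and MEF2 proteins, both of which are among the genes described. The sequence is from RefSeq (GRCm38.p6), chr1:134289854-134290003, plus strand, the 150 bases up to the gene start. Capitals mark matches to the E-box CANNTG and to TATTTAT, an AT-rich core of MEF2 sites, searched on both strands.
Myog: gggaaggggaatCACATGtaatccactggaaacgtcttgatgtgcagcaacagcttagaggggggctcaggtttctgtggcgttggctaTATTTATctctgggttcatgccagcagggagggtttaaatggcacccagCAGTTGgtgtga
The E-boxes begin 138 and 12 bases before the gene start, with no overlap of the motifs, and TATTTAT begins 61 bases before it. Of 32851 promoter windows of 250 bases in the same table, 66.2% hold at least 1 CANNTG and 5.17% hold TATTTAT. The arrays measured no binding, so the matches are a description of the sequence.

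Cdh15, M-cadherin, is an adhesion protein of satellite cells and fusing myoblasts. It was 14.6 and 27.7 in marrow, 32.7 and 64.2 in uninjured muscle, 78.8 and 82.7 in injured muscle, and 25 and 6.08 in transplanted injured muscle. Injured muscle, at 80.8 ± 2.71 (SD, n = 2), did not overlap any other group, and its arrays were the only ones above their medians. Injured muscle was 1.80 above bone marrow on the log2 scale (SE 0.62, limma adjusted p = 0.0600) and did not pass. With values under 38.4 set to 38.4 the difference was 1.00 and passed (adjusted p = 0.0155). Transplanted injured muscle was lower than injured muscle (log2 difference -2.31, SE 0.62, unadjusted p = 0.00596), which the adjustment over all probe sets did not keep (limma adjusted p = 0.234). Fitted on the 4 injured arrays alone, its adjusted p was 0.0408. The summed intensity of 6 fibroblast markers also differed between the groups, at 126 and 294 in marrow, 28650 and 7146 in uninjured muscle, 19400 and 19490 in injured muscle, and 3608 and 3902 in transplanted injured muscle. Their part in the Myog and Cdh15 values was not tested.

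Des encodes desmin, the intermediate filament of skeletal, cardiac and smooth muscle, and its 2 probe sets disagreed. The brighter one, 1426731_at, was 18.8 and 63.9 in marrow, 12.1 and 165 in uninjured muscle, 76.5 and 71.8 in injured muscle, and 83.2 and 49.1 in transplanted injured muscle. The arrays of uninjured muscle were the lowest and the highest of all 8, every neighbouring pair of groups overlapped, and no comparison passed (limma adjusted p from 0.485 to 0.999). The dimmer one, 1426732_at, was 47.5 and 47.7 in marrow, 64.4 and 69.7 in uninjured muscle, 6.62 and 4.94 in injured muscle, and 26.0 and 17.9 in transplanted injured muscle. None of its 4 groups overlapped, though no array was above its own median. By this probe set Des was lower in injured than in uninjured muscle (log2 difference -2.86, SE 0.44, limma adjusted p = 0.00444), also with values under 38.4 set to it (-0.74, adjusted p = 0.00557). It was also lower in injured muscle than in bone marrow (-2.40, SE 0.44, adjusted p = 0.00554), which did not hold with values so set (-0.28, adjusted p = 0.112). Transplanted injured muscle was lower than uninjured muscle (-1.47, SE 0.44, adjusted p = 0.0368). That call was lost without any one of the bone marrow, uninjured or transplanted arrays (adjusted p 0.0608 to 0.151) and under quantile normalization (adjusted p = 0.0848).

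The Des promoter is shown beside that of Myog as the promoter of a structural target gene (RefSeq GRCm38.p6, chr1:75360142-75360291, plus strand, the 150 bases up to the gene start, capitals marking CANNTG).
Des: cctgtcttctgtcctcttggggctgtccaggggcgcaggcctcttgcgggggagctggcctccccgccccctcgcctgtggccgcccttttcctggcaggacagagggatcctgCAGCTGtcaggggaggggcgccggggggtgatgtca
Its E-box begins 36 bases before the gene start and a further one lies 220 bases before it, outside the stretch shown. TATTTAT is not among the 250 bases searched. The Myog and Des windows thus both hold the E-box, which most promoters of this length also do.

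Mef2c is a MEF2 family factor that works with the MyoD family in muscle but is also used in B cells, myeloid cells, endothelium and neurons. Its probe sets fell into kinds that moved in opposite directions. The brightest, 1424852_at, was 2070 and 796 in marrow, 1751 and 890 in uninjured muscle, 370 and 437 in injured muscle, and 221 and 222 in transplanted injured muscle. Bone marrow and uninjured muscle overlapped, and all 4 of those arrays were above the 4 injured arrays. The probe sets 1451506_at and 1451507_at had the same order of group means, from 452 ± 166 (SD, n = 2) in bone marrow to 192 ± 26.3 (SD, n = 2) in transplanted injured muscle for the former, and from 255 ± 120 (SD, n = 2) to 78.7 ± 2.02 (SD, n = 2) for the latter. The probe set 1421028_a_at ran the other way: it was 95 and 201 in marrow, 110 and 152 in uninjured muscle, 467 and 404 in injured muscle, and 373 and 267 in transplanted injured muscle. The last, 1421027_a_at, was 225 and 771 in marrow, 1835 and 269 in uninjured muscle, 736 and 833 in injured muscle, and 753 and 516 in transplanted injured muscle, with overlap between all neighbours in the order. Over the 8 arrays, which share the sort and the scan, the log2 values of 1424852_at, 1451506_at and 1451507_at correlated at 0.932 to 0.958 with each other and at -0.842 to -0.927 with 1421028_a_at.

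**Figure D2:**
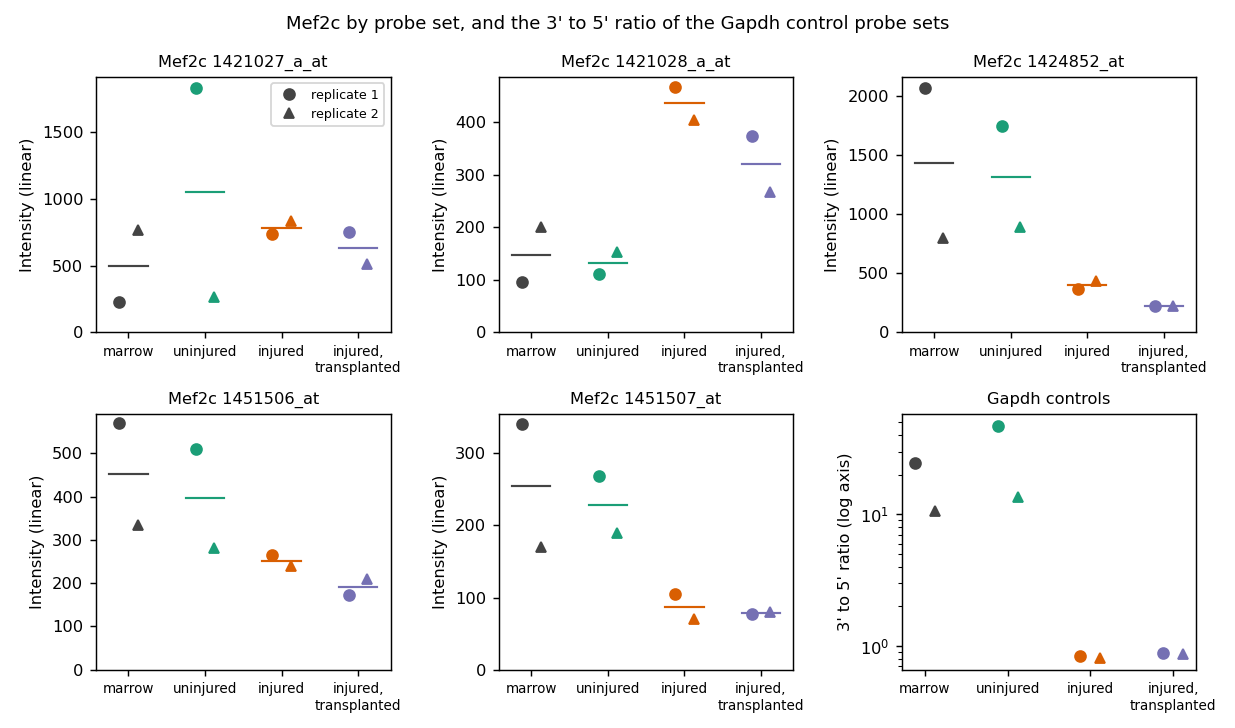
Intensity (linear axis from 0) of each Mef2c probe set by group, with circles for replicate 1, triangles for replicate 2 and a bar at the mean, and in the last panel the 3' to 5' ratio of the Gapdh control probe sets (log axis). The 3 probe sets 1424852_at, 1451506_at and 1451507_at are highest in bone marrow and uninjured muscle, 1421028_a_at is highest in injured muscle at 467 and 404, and the Gapdh ratio separates the same arrays, at 10.7 to 46.9 against 0.808 to 0.882.

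By its brightest probe set, Mef2c was lower in transplanted injured muscle than in bone marrow (log2 difference -2.52, SE 0.49, limma adjusted p = 0.00679) and than in uninjured muscle (log2 difference -2.48, SE 0.49, adjusted p = 0.00801). The latter lost the threshold narrowly without either transplanted array (adjusted p = 0.052 and 0.0505). Mef2c was also lower in injured muscle than in bone marrow (-1.67, SE 0.49, adjusted p = 0.0355) and than in uninjured muscle (-1.63, SE 0.49, adjusted p = 0.0444). Without the first bone marrow array the difference from bone marrow was -0.98 (adjusted p = 0.181). Without the first uninjured array the difference from uninjured muscle was -1.14 (adjusted p = 0.123). These 2 calls were also lost without either injured array (adjusted p 0.117 to 0.200) and without either transplanted array (adjusted p 0.0652 to 0.0785), and the one against uninjured muscle under quantile normalization (adjusted p = 0.0545). The probe set 1421028_a_at was instead higher in injured muscle, by 1.62 against bone marrow (SE 0.43, adjusted p = 0.0225) and by 1.71 against uninjured muscle (SE 0.43, adjusted p = 0.0227), and these calls too were lost without either injured array (adjusted p 0.0924 to 0.134). The first was lost as well without the first bone marrow array (1.10, adjusted p = 0.111). The direction of Mef2c between injured and other groups therefore depends on the probe set, and which transcripts each one reads was not examined here. The RNA control ratios differ between the same arrays, and so does the summed intensity of 7 B cell and lymphoid progenitor markers, which was 9464 and 11860 in marrow, 1072 and 2606 in uninjured muscle, 174 and 226 in injured muscle, and 149 and 142 in transplanted injured muscle. Among those markers Pax5 was under the median of every array. The summed intensity of 6 macrophage markers was highest on the injured arrays with or without transplant, as 1421028_a_at was. The sum was 4173 and 3481 in marrow, 15620 and 29330 in uninjured muscle, 57850 and 62400 in injured muscle, and 58420 and 55740 in transplanted injured muscle. Mrc1 among them did not follow that sum and was highest in uninjured muscle, at 5495 and 5070. It was 4909 and 4778 in injured muscle, and 3476 and 3805 in transplanted injured muscle. Of the 6 markers 6 were called higher in injured muscle than in bone marrow, where 12.6% of all tested genes were. From marrow to uninjured muscle the macrophage sum rose and the B cell sum fell. In that comparison 1421028_a_at differed by -0.09 (SE 0.43, limma adjusted p = 0.941) and 1424852_at by -0.04 (SE 0.49, adjusted p = 0.978). The part of B cells, of macrophages and of the control ratios in the Mef2c values was not tested.

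Counted by the brightest probe set of each gene, 0 to 2 of the 5 tested genes passed in a comparison. Uninjured muscle against bone marrow had 0 of 5 past a limma adjusted p of 0.05, where 7.25% of all 9506 tested genes passed (5.85% higher, 1.4% lower). At an unadjusted p under 0.05 it had 1 of 5, Myog, higher, where 1175 of the 9506 genes were higher and 895 lower. Injured muscle against bone marrow had 2 of 5, Myog higher and Mef2c lower, against 29.8% of all genes (12.6% higher, 17.2% lower). Transplanted injured muscle against bone marrow had 1 of 5, Mef2c lower, against 31.5% (12% higher, 19.5% lower). Injured against uninjured muscle had 1 of 5, Mef2c lower, against 23.9% (8.77% higher, 15.1% lower), and transplanted injured against uninjured muscle had 1 of 5, Mef2c lower, against 31.3% (10.5% higher, 20.8% lower). Transplanted against untransplanted injured muscle had 0 of 5, against 0.316% (0.0421% higher, 0.274% lower). At an unadjusted p under 0.05 it had 2 of 5, Myog and Cdh15, lower, where 699 of the 9506 genes were lower and 229 higher. With 5 tested genes these counts are not read as different from the shares over all genes. The comparisons share groups, so their counts are not independent of each other.

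**Figure D3:**
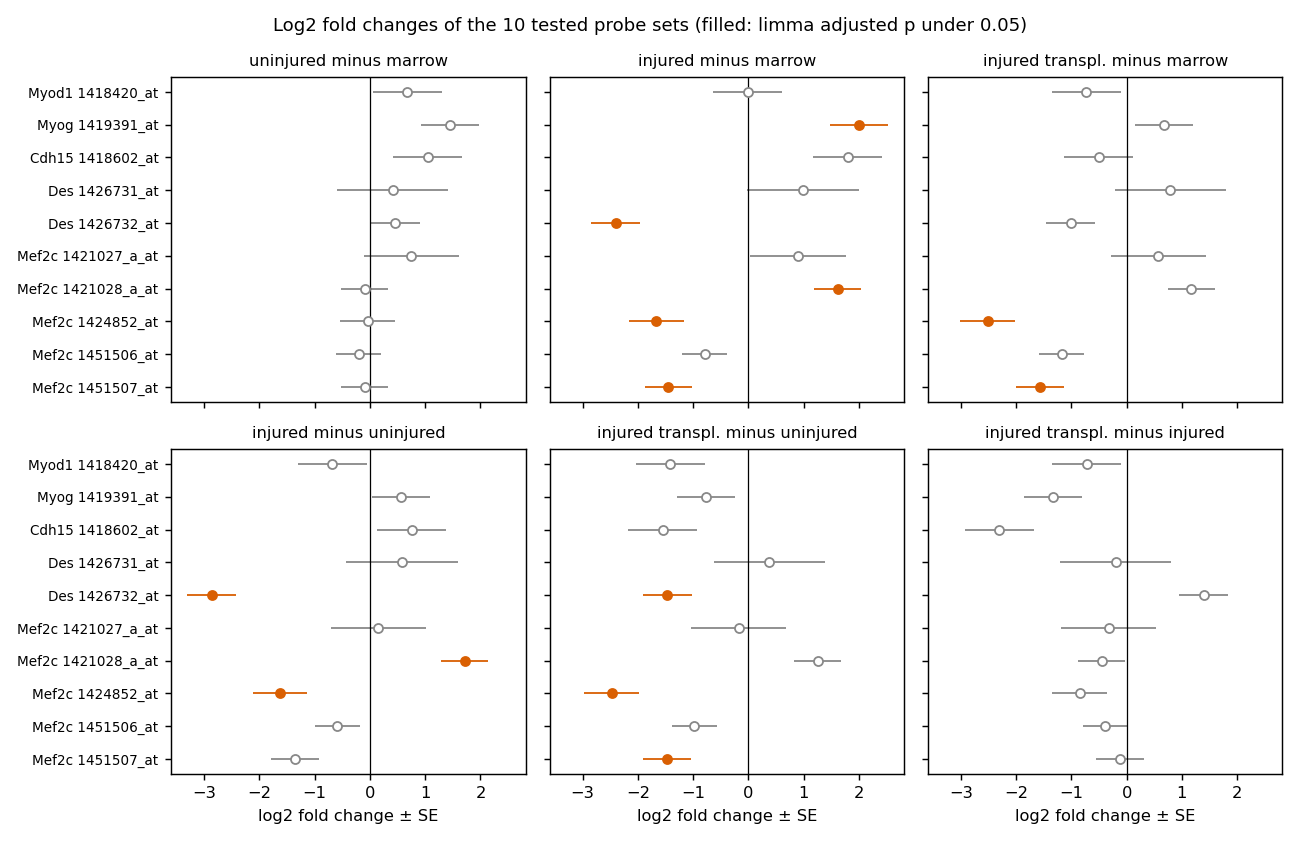
Log2 fold change and standard error (bars) of the 10 tested probe sets in the 6 comparisons, with filled orange points where the limma adjusted p was under 0.05. The filled points belong to Myog in 1 comparison, to the dimmer Des probe set, and to 3 Mef2c probe sets, of which 1421028_a_at lies on the positive side and 1424852_at on the negative side.

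Over all tested genes the median log2 difference was -0.06 for uninjured muscle against bone marrow, -0.27 for injured muscle and -0.32 for transplanted injured muscle against bone marrow, -0.25 for injured and -0.31 for transplanted injured against uninjured muscle, and -0.00 for transplanted against untransplanted injured muscle. Centring each array on its median moved these to -0.24, -0.30, -0.21, -0.10, -0.03 and 0.13 in the same order. Over the 5 tested genes the medians were 0.68, 0.99, -0.51, 0.56, -1.41 and -0.85, given as a description only, since a gene could be tested through the groups where it was high.

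The rank within the array sets the muscle regulators beside other genes of the muscle programme. The 7 genes other than Mef2c ranked low in each group, with a median percentile of 19.6 for marrow, 35.9 for uninjured muscle, 33.0 for injured muscle and 25.1 with the transplant, where all named genes had 57.9, 58.2, 55.4 and 54.3. The mature fibre genes were ranked higher in cells from uninjured muscle, at a median percentile of 74.0, against 37.9 in bone marrow, 48.1 in injured muscle and 34.2 in transplanted injured muscle. The 6 blood cell markers were at 97.6 to 98.7 in every group.

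**Figure D4:**
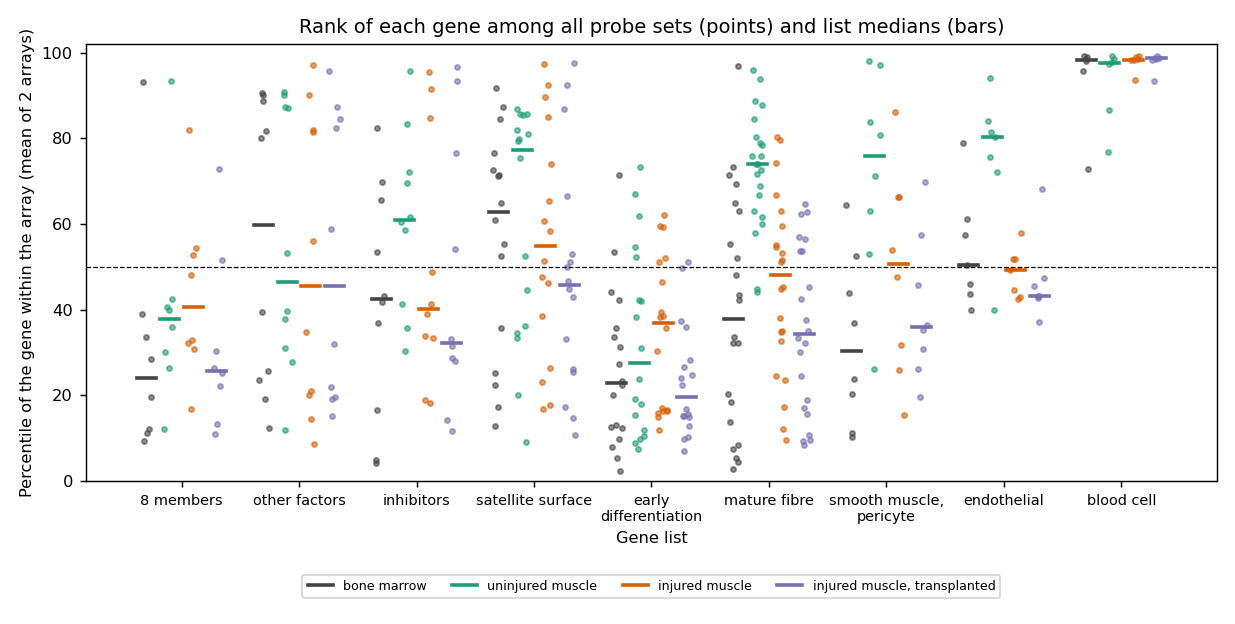
Percentile of each gene among the probe sets of its array (mean of the 2 arrays of a group), with points for genes, bars for list medians and a dashed line at the 50th percentile. The mature fibre genes have a median of 74.0 in uninjured muscle and 34.2 in transplanted injured muscle, while the 6 blood cell markers stay at 97.6 or above by median.

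Among the other transcription factors of the programme, 10 were analysed here and 7 were tested. Mef2a, a relative of Mef2c, was higher in injured muscle (2200 and 2904) than in bone marrow (560 and 346; log2 difference 2.51, SE 0.33, limma adjusted p = 0.00133) and than in uninjured muscle (756 and 523; 2.0, SE 0.33, adjusted p = 0.00537), the latter not without the second injured array (1.80, adjusted p = 0.0534). Eya1, a transcriptional cofactor, was lower in injured muscle (4.71 and 6.97) than in uninjured muscle (38.2 and 51.6; -2.31, SE 0.64, adjusted p = 0.0333). Its call rests on low values, since with values under 38.4 set to it the difference was -0.20 (adjusted p = 0.389). Those 2 were the only tested factors that passed in injured against uninjured muscle, where 8.77% of all tested genes were higher and 15.1% lower. The 7 had a median of -0.43. Pax3, the relative of Pax7 that acts in the embryo, was not tested and lay between 1.79 and 28.3.

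Of the inhibitors of the MyoD family 8 of 10 were tested, and the list's median percentile was 42.4 in bone marrow, 61.0 in uninjured muscle, 40 in injured muscle and 32.3 in transplanted injured muscle. Id2, which ties up the E-protein partners of MyoD, was 161 and 156 in marrow, 205 and 81.3 in uninjured muscle, 1104 and 836 in injured muscle, and 1085 and 1392 in transplanted injured muscle. It rose in injured muscle against uninjured muscle by 2.85 (SE 0.44, limma adjusted p = 0.00444) and in transplanted injured muscle by 3.21 (SE 0.44, adjusted p = 0.00202). The sum of the macrophage markers was also highest on these 4 arrays, though Mrc1 was not, and Mef2a and Sdc3 were high there too. Of those markers 4 of 6 were called higher in injured than in uninjured muscle, where 8.77% of all tested genes were. The part of macrophages in the values of these genes was not tested. Mdfic, a MyoD family inhibitor protein, was 503 and 407 in bone marrow while the 6 muscle arrays spanned 1361 to 2593, and was higher than in bone marrow in uninjured muscle (2.05, SE 0.33, adjusted p = 0.00936, and 0.0687 without the second bone marrow array), injured muscle (1.95, SE 0.33, adjusted p = 0.00387) and transplanted injured muscle (2.39, SE 0.33, adjusted p = 0.00152). Fitted on the 4 compared arrays alone, Mdfic did not pass in uninjured muscle against bone marrow (2.05, limma adjusted p = 0.117). The Notch targets Hes1 and Hey1 went the other way after injury. Hes1 fell from 122 and 403 in uninjured muscle to 31.3 and 24.6 in injured muscle (-2.83, SE 0.83, adjusted p = 0.0394). Hey1 fell from 355 and 117 to 19.1 and 3.72 (-3.96, SE 1.10, adjusted p = 0.0333). Both were lost without either injured array (adjusted p 0.0758 to 0.172), Hes1 also without the second uninjured array (0.121), and Hey1 without the first (0.124) or without either bone marrow array (0.0582 and 0.0585). With values under 38.4 set to it, Hey1 differed by -2.29. In that comparison 1 inhibitor was higher and 2 were lower of 8, where 8.77% of all tested genes were higher and 15.1% lower, and the list's median was -0.68.

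Of the surface and niche genes of satellite cells, many of which other cells also carry, 16 were analysed here and 13 were tested. Cd34, a surface protein of quiescent satellite cells and of blood progenitors, was 842 and 533 in marrow, 420 and 345 in uninjured muscle, 100.5 and 128 in injured muscle, and 42.3 and 45.6 in transplanted injured muscle. It was lower in injured than in uninjured muscle (-1.71, SE 0.35, limma adjusted p = 0.0118), though not without either injured array (adjusted p = 0.0948 and 0.0568). Sdc3, a heparan sulphate proteoglycan, was 189 and 253 in marrow, 159 and 960 in uninjured muscle, 2865 and 2808 in injured muscle, and 3014 and 3034 in transplanted injured muscle, and was higher in injured than in uninjured muscle (2.84, SE 0.69, adjusted p = 0.0208), again not without either injured array (0.107 and 0.0961). Without the first uninjured array the difference was 1.56. Notch3 was at 509 and 574 on the uninjured muscle arrays against 39.3 to 179 elsewhere, and fell with injury (-2.91, SE 0.42, adjusted p = 0.00372). Fgfr1, a receptor for fibroblast growth factors, was 83.3 and 121 in injured muscle and 3.77 and 7.20 in transplanted injured muscle. It was the only one of the 13 to pass between those groups (-3.48, SE 0.43, adjusted p = 0.0326), and it did not pass without any one of the bone marrow or injured arrays (adjusted p 0.0774 to 0.444) or with values under 38.4 set to it (-1.30, adjusted p = 0.179). Of all tested genes 0.274% were lower and 0.0421% higher in transplanted than in untransplanted injured muscle. In injured against uninjured muscle 1 of the 13 was higher and 4 were lower, against 8.77% and 15.1% of all tested genes, with a median of -0.62.

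Early differentiation genes were mostly low: 11 of 18 with a probe set were under the array's median on all arrays and 8 were tested. Against bone marrow, 2 of the 8 were called higher in uninjured muscle and 3 in injured muscle, where 5.85% and 12.6% of all tested genes were. The counts of this list are a description, since a gene could be tested through the groups where it was high. Actc1 and Chrna1, for example, reached 38.4 only on the untransplanted muscle arrays. In transplanted injured muscle 2 of the 8 were lower than in bone marrow and 0 higher, where 19.5% and 12% were. The lower ones were Myl4 (log2 difference -3.67, SE 0.72, limma adjusted p = 0.00703) and Chrnb1 (-2.31, SE 0.69, adjusted p = 0.0355, or -0.97 with values under 38.4 set to it). The Chrnb1 difference depended on single arrays, and ran from -3.24 to -1.39 as each bone marrow or transplanted array was left out. Actc1, the cardiac actin made in young muscle, was 11.1 and 12.6 in marrow, 137 and 198 in uninjured muscle, 111 and 104 in injured muscle, and 8.79 and 29.3 in transplanted injured muscle. It was higher than in bone marrow in uninjured muscle (3.41, SE 0.52, limma adjusted p = 0.00705, and 0.0541 without the first bone marrow array) and injured muscle (2.81, SE 0.52, adjusted p = 0.00553). With values under 38.4 set to it these differences were 2.0 and 1.39, and with array weights the first did not pass (adjusted p = 0.0801). Chrna1, the acetylcholine receptor subunit and a known target of the MyoD family, was 18.9 and 19.2 in marrow, 50.4 and 49.3 in uninjured muscle, 106 and 106 in injured muscle, and 27 and 28.5 in transplanted injured muscle. It was higher in injured muscle than in bone marrow (2.25, SE 0.37, adjusted p = 0.00355, or 1.37 with values so set). Cdkn1c, the cell cycle inhibitor p57, was 33.1 and 50.2 in marrow, 328 and 176 in uninjured muscle, 158 and 97.4 in injured muscle, and 36.1 and 24.6 in transplanted injured muscle. It was higher than in bone marrow in both untransplanted muscle groups (2.45, SE 0.46, adjusted p = 0.0194 for uninjured muscle, and 1.51, SE 0.46, adjusted p = 0.0398 for injured muscle), and both calls were lost without either bone marrow array (adjusted p 0.0622 to 0.167) and the second also without any injured array (0.0624 to 0.222). Without the first uninjured array the first had an adjusted p of 0.052.

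All 22 mature fibre genes with a probe set were tested. Against bone marrow, 10 were higher and 1 lower in uninjured muscle, against 5.85% and 1.4% of all tested genes, with a median of 3.0 (1.56 with values under 38.4 set to it). Tnnc2, fast troponin C, was 2.49 and 2.18 in marrow, 1329 and 1320 in uninjured muscle, 121 and 96.6 in injured muscle, and 8.78 and 5.13 in transplanted injured muscle. Mylpf, a fast myosin light chain, was 41.6 and 40.4, then 661 and 765, then 239 and 251, then 41.5 and 36.6 in the same groups. Both were higher in uninjured muscle than in bone marrow (Tnnc2 7.71, SE 0.38, limma adjusted p = 5.49e-05, which became 4.97 once values under 38.4 were raised to it, and Mylpf 3.99, SE 0.31, adjusted p = 0.000331). In injured against uninjured muscle 16 were lower, against 15.1% of all tested genes, with a median of -2.30 (-1.57 with values so set), and in transplanted injured against uninjured muscle 19 were lower, against 20.8%, with a median of -3.26 (-1.97 with values so set). These counts are a description, since a gene could be tested through the uninjured arrays where it was high. Tnnc2 fell in the former (log2 difference -3.57, SE 0.38, adjusted p = 0.00138). Between the injured groups 3 were lower with the transplant, where 0.274% of all tested genes were, again as a description. They were Tnnc2 (-3.37, limma adjusted p = 0.0291), Mylpf (-2.53, adjusted p = 0.0325) and Myl1 (-3.24, adjusted p = 0.0497). None of these 3 passed without any one of the bone marrow or injured arrays (adjusted p 0.0774 to 0.444), and with values under 38.4 set to it Tnnc2 did not pass (-1.40, adjusted p = 0.103). Cox6a2, the muscle and heart form of a respiratory chain subunit, went the other way, at 2435 and 1892 in bone marrow against 177 and 335 in uninjured muscle. Over all muscle arrays it read 75.4 to 335, and it was lower in injured muscle than in bone marrow (-4.60, SE 0.38, limma adjusted p = 0.000195). Atp2a1, the calcium pump of fast fibres, was 245 and 162 in marrow against 138 and 195 in uninjured muscle (-0.28, SE 0.48, adjusted p = 0.812), and Ryr1, the calcium release channel, 337 and 188 against 238 and 216 (-0.15, SE 0.37, adjusted p = 0.875). Ryr1, named after its values were seen, was lower in injured muscle than in bone marrow (-1.83, SE 0.37, adjusted p = 0.00853), and Atp2a1 in transplanted injured muscle (-2.55, SE 0.48, adjusted p = 0.00548).

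The summed markers of smooth muscle and of endothelium were highest on the uninjured muscle arrays. The summed intensity of 8 smooth muscle and pericyte markers was 338 and 336 in marrow, 7258 and 7051 in uninjured muscle, 1115 and 1016 in injured muscle, and 417 and 443 in transplanted injured muscle, with Cnn1 under the median of every array. The sum of 7 endothelial markers was 756 and 802, then 4136 and 3042, then 397 and 493, then 416 and 414. Pecam1 did not follow that sum, at 70.7 and 59.0 in marrow, 32.5 and 61.2 in uninjured muscle, 42.5 and 86.7 in injured muscle, and 38.0 and 42.5 in transplanted injured muscle. The 5 satellite cell markers with a probe set summed to 43.6 and 93.1 in marrow, 114 and 307 in uninjured muscle, 192 and 203 in injured muscle, and 83.0 and 65.1 in transplanted injured muscle, and 3 of them, Pax7, Myf5 and Calcr, were under the median on all 8 arrays. The part of these cells in the fibre gene and regulator values was not tested.

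For each tested gene the most similar patterns over the 8 arrays were sought among tested genes whose highest group mean reached 64.2, as a description of arrays that share a sort and a scan. Myod1 was followed most closely by Adcyap1r1, Syt11 and Fam161a (Pearson r 0.931 to 0.932). Myog was followed by Pofut2, Rab34 and Klrb1b (0.951 to 0.963), and Cdh15 by another Pofut2 probe set, Arhgef25 and Bmp1 (0.930 to 0.946). For the brighter Des probe set these were Ppp1r15a, Plekho2 and Cd99 (0.967 to 0.984), and for the brightest Mef2c probe set Siah2, Glo1 and Ubxn2a (0.989 to 0.998). None of these 14 genes is on the muscle gene lists used here.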

How the data were processed

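Gene expression was measured on 8 arrays. Each probe set has 1 deposited intensity per array, not log-transformed, which the authors scaled so that each array's trimmed mean, without the lowest and highest 2%, is about 250.0 (checked on the values). Per the submitters' processing notes GCOS was used, with no version or role; the sources used here do not give the summary of probes or the background correction. Labelling started from 1 µg of total RNA, per the labels' protocols.

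Of 22690 probe sets 64 controls were left out. The platform annotation named 20380 with 1 gene, 691 with several and 1555 with none, and 20364 symbols were updated through gene identifiers. Intensities below 1 were raised to 1, and tests used log2 of the intensity plus 4.02, its 10th percentile. The 16289 probe sets with at least 2 arrays at or above 38.4 were tested in limma 3.58.1 (R 4.3.3) with 1 mean per group over all 8 arrays (4 residual and 4.07 prior degrees of freedom) and eBayes with a trend in mean intensity. Tests were two-sided, p-values were adjusted by Benjamini-Hochberg within each comparison (threshold 0.05), and the test was checked on simulated data. Precision is limited by the number of arrays, with a median SE of 0.45 for a log2 difference. Nothing in the labels ties replicates to separate animals: the p-values reflect the spread among arrays alone, and that spread may be technical. The brightest probe set stands for a gene.

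The genes and lists were chosen with earlier results of these data known. Named from each list were up to 3 called genes with the smallest p per comparison, of which a part is printed, and the markers at or under the median; Pax3 and Ptprc were added after their values were seen. Alternatives were other normalizations, pseudocounts and filters, array weights, the 4 compared arrays alone, each array left out and a replicate block. Setting values under 38.4 to it was added after seeing the data. Listed genes without a probe set of their own here were not analysed. Promoters of Myod1 and Myf6 were not used here.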

Additional observations from a re-analysis of the deposited data

How the results depend on the processing

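Of 1038 alternative values of the muscle genes' probe sets, 945 kept their direction or lack of a call and their side of the threshold, 57 lost a call, 36 gained one, and no called value changed sign. Of 1093 for the other named genes 960 did so and 133 lost a call. The count of genes past the threshold, of 5, stayed at 0 for uninjured muscle and at 1 for transplanted injured muscle against bone marrow under every alternative. For injured muscle against bone marrow it was 2, 1 with a filter at the 60th percentile, and 3 with the pseudocount at the 25th percentile, on the 4 arrays alone or when any probe set of a gene counted. Leaving out an array gave 0 to 3. For injured against uninjured muscle it was 1, and 0 with quantile normalization, median centring, no filter, array weights, the 4 arrays alone or values under 38.4 set to it. It was 2 when any probe set of a gene counted and 0 to 2 without an array. For transplanted injured against uninjured muscle it was 1, 2 when any probe set counted, and 0 to 2 without an array. For transplanted against untransplanted injured muscle it was 0, 2 on the 4 arrays alone and 1 with array weights. The probe sets called over the whole table ranged from 288 to 3056 around 991, from 2288 to 7021 around 5044, from 2581 to 7192 around 5297, from 1323 to 5955 around 4235, from 2390 to 6618 around 5284, and from 0 to 1125 around 41, with the comparisons in the order in which the report counts them. The deviations of same-numbered replicates correlated at 0.313 between bone marrow and uninjured muscle, and at -0.032 to 0.003 between the other groups. In those 2 groups the Gapdh control ratio was 24.4 and 46.9 on the replicate 1 arrays, against 10.7 and 13.6 on the replicate 2 arrays. Whether the replicate numbers pair these arrays was not tested. With the replicate number as a block, the counts of 0, 2, 1, 1, 1 and 0 stayed, Mef2c 1451507_at passed in injured against uninjured muscle (-1.35, adjusted p = 0.0358), and Mylpf and Myl1 no longer passed between the injured groups (adjusted p = 0.0578 and 0.0802). The cause of these changes was not tested.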
